A study of Mus musculus with 6 samples.

Results

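The neuronal pentraxins are encoded in the mouse by *Nptx1*, *Nptx2* and *Nptxr*. Their rows were found by symbol alone. Each gene has 1 row among the 24453 gene rows of the deposited expression table. The values are FPKM, fragments per length of exon scaled to the mapped reads of the library. All 3 members passed the filter on low values, an average of at least 1 FPKM over the libraries, as did 12863 genes in all.

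The libraries hold visual cortex messenger RNA of C57BL/6J males aged 14 postnatal days, perfused with paraformaldehyde before dissection, with 3 libraries from *Chrdl1* knockouts (KO) and 3 from wild type (WT). The labels do not describe the knockout allele. They also do not state whether a library is 1 animal, so a p-value here reflects only how much the libraries differ among themselves. The titles tie 1 WT and 1 KO library together by a shared code and middle number, and these are called pairs 1 (WT1013_1_1 and KO1013_1_3), 2 (WT1011_2_1 and KO1011_2_3) and 3 (WT1012_3_1 and KO1012_3_3). No source used here says what a pair shares. *Chrdl1*, which encodes a bone morphogenetic protein antagonist that astrocytes secrete, spanned 3.09 to 3.65 FPKM in WT and 0.12 to 0.19 FPKM in KO, as the labels say.

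Pentraxins share a carboxy-terminal pentraxin domain and assemble into multimers. The neuronal members join into mixed complexes at excitatory synapses, where they bind the extracellular part of AMPA-type glutamate receptors and hold them in clusters. NPTX1 and NPTX2 (also called Narp) are secreted, whereas the neuronal pentraxin receptor NPTXR is anchored in the membrane and can be shed by the protease ADAM17. *Nptx2* is an activity-regulated gene, and its protein is known for recruiting GluA4-containing receptors at excitatory synapses onto parvalbumin interneurons. Astrocytes act on this system through glypican 4, which prompts neurons to release NPTX1 by way of the receptor phosphatase that *Ptprd* encodes. The comparison asks whether these transcripts differ in a cortex that lacks another astrocyte-secreted factor.

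The genes lie on separate chromosomes of mm10. *Nptx1* (NM_008730) is on the minus strand of chromosome 11, from 119538719 to 119547820, and has 5277 bp of exon in the deposited table. *Nptx2* (NM_016789) is on the plus strand of chromosome 5, from 144545887 to 144557478, with an exon length of 2544 bp. *Nptxr* (NM_030689) is on the minus strand of chromosome 15, from 79786351 to 79804709, with an exon length of 4942 bp. In GENCODE M21, on the same build, each has 5 exons, and the longest coding sequences hold 432, 429 and 493 codons for *Nptx1*, *Nptx2* and *Nptxr*. No other GENCODE gene overlaps *Nptx1* or *Nptx2*.

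*Nptxr* overlaps *Npcd*, a readthrough gene that joins it to the neighbouring *Cbx6*, the gene of a Polycomb protein. In GENCODE the *Npcd* exons cover 1453 bp, of which 890 bp (61.3%) are shared with *Nptxr* exons and 563 bp (38.8%) with *Cbx6* exons. The *Npcd* model of the deposited table is longer, at 4572 bp. The *Nptxr* row held 99.8% to 101% as many reads as the *Npcd* row in each library, and *Npcd* measured 227 to 321 FPKM. No source used here says how reads in shared exons were assigned, so the *Nptxr* values are uncertain as a measure of *Nptxr* apart from *Npcd*.

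The 3 transcripts kept 1 order of level in every library. *Nptxr* was the highest, at 247 FPKM on average over the 6 libraries, above 99.0% of the tested genes. *Nptx1* averaged 44.8 FPKM, above 88.2% of tested genes, and *Nptx2* averaged 22.7 FPKM, above 75.4%. The ranges over libraries did not touch: 209.7 to 298 FPKM for *Nptxr*, 39.1 to 50.2 for *Nptx1* and 19.4 to 28.1 for *Nptx2*. For scale, WT averages of the AMPA receptor subunit genes were 72.7 (*Gria1*), 81.0 (*Gria2*), 48.4 (*Gria3*) and 18.6 (*Gria4*) FPKM, so *Nptx1* was nearest to *Gria3* and *Nptx2* to *Gria4*. Estimated reads per library ranged from 23475 to 47061 for *Nptxr*, from 5336 to 8973 for *Nptx1* and from 1299 to 2430 for *Nptx2*. Counting error alone is then at most 0.653%, 1.37% and 2.77% of the value. In bulk tissue, fewer cells of a type and less RNA per cell cannot be told apart.

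**Figure D1:**
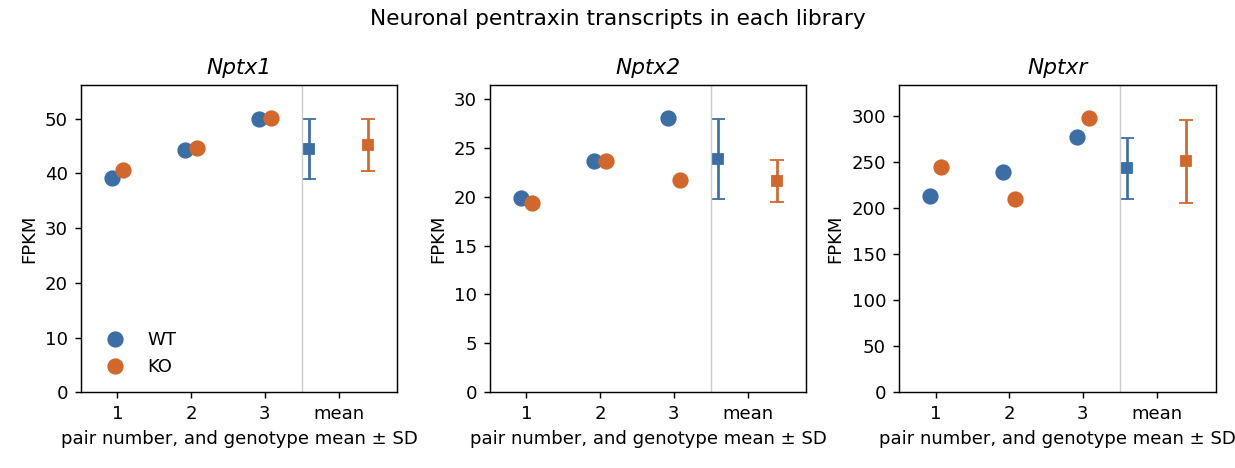
FPKM of *Nptx1*, *Nptx2* and *Nptxr* in each of the 6 libraries (circles, WT blue and KO orange, by pair number), with the genotype mean ± SD (squares, n = 3 libraries each) at the right of each panel. The WT and KO values of *Nptx1* nearly coincide in each pair, *Nptx2* differs between genotypes mainly in pair 3, and *Nptxr* is lower in KO in pair 2 and higher in pairs 1 and 3.

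None of the 3 genes passed the test between genotypes. By limma on log2(FPKM + 1), with Benjamini-Hochberg adjustment over all 12863 genes, 0 of 3 members were called at an adjusted p under 0.05, where 0.00777% of tested genes (1 gene, *Chrdl1*) were called. The same share was called with the pair number as a replicate block. KO and WT values overlapped for each member, while they did not overlap for 2.95% of tested genes.

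*Nptx1*, the secreted pentraxin linked to glypican 4, was close between genotypes within every pair. For pairs 1, 2 and 3 the WT libraries measured 39.1, 44.3 and 49.97 FPKM and the KO libraries 40.7, 44.6 and 50.16 FPKM. KO was above WT by 1.52, 0.389 and 0.189 FPKM, each smaller than the distance between any 2 pairs. WT averaged 44.5 ± 5.41 FPKM and KO 45.2 ± 4.77 (SD, n = 3 per genotype). The log2 difference, KO minus WT, came to 0.02 (SE 0.11) with a 95% interval of -0.24 to 0.28 (limma adjusted p = 1). An exact 2-sided permutation test gave p = 0.7, where 3 against 3 libraries allow 0.1 at the lowest. With the block the interval narrowed to -0.07 to 0.12, which is 0.954 to 1.08 times the WT level on the FPKM + 1 scale.

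*Nptx2*, the activity-regulated secreted pentraxin, was lower in KO in pair 3 and close to WT in the other two pairs. WT libraries of pairs 1, 2 and 3 measured 19.8, 23.6 and 28.1 FPKM, and KO libraries 19.4, 23.7 and 21.8 FPKM. KO was thus at 97.6%, 100.2% and 77.5% of WT within the pairs. The WT library of pair 3 was the highest of all 6, and the other WT libraries lay within the range of the KO libraries. WT averaged 23.8 ± 4.12 FPKM and KO 21.6 ± 2.15 (SD, n = 3 per genotype), a log2 difference of -0.13 (SE 0.13; 95% interval -0.43 to 0.17; limma adjusted p = 1; exact permutation p = 0.5). Without the WT library of pair 3 the difference was -0.01 (adjusted p = 1), so its size rests on that library. With the block the interval was -0.30 to 0.04, from 0.813 to 1.03 times the WT level.

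*Nptxr*, the membrane-anchored member, was above WT in the KO libraries of pairs 1 and 3 and below it in pair 2. It measured 213, 239 and 278 FPKM in the WT libraries of pairs 1, 2 and 3, and 244, 209.7 and 298 FPKM in their KO libraries. KO was at 115% of WT in pair 1, 87.8% in pair 2 and 107% in pair 3. None of these gaps (31.6, 29.2 and 20.5 FPKM) exceeded the SD over the libraries of either genotype. WT averaged 243 ± 32.6 FPKM and KO 251 ± 44.6 (SD, n = 3 per genotype), a log2 difference of 0.04 (SE 0.15; 95% interval -0.31 to 0.38; limma adjusted p = 1; exact permutation p = 0.8). With the block the interval was -0.13 to 0.20, from 0.915 to 1.15 times the WT level. *Npcd*, which shares exons with it, had the same log2 difference of 0.04. Without the WT library of pair 1 or the KO library of pair 3, the sign turned for *Nptx1* (-0.062 and -0.053) and for *Nptxr* (-0.054 and -0.094), with limma adjusted p of 1 in each.

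**Figure D2:**
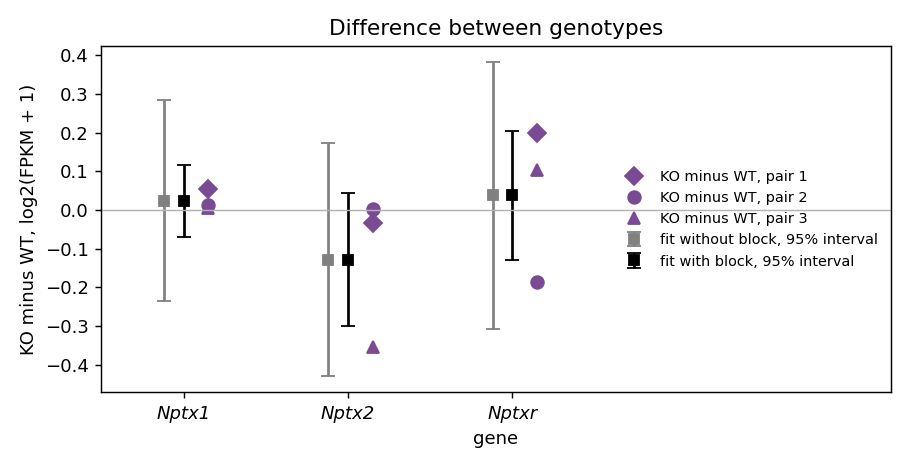
KO minus WT on the log2(FPKM + 1) scale for *Nptx1*, *Nptx2* and *Nptxr*. Squares with bars are the limma estimate and its 95% interval without (grey) and with (black) the pair number as a block, and purple symbols are the differences within each pair. Every interval includes 0, and the *Nptxr* differences lie on both sides of it, from -0.19 in pair 2 to 0.20 in pair 1.

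Ratios between the 3 transcripts spread less among the WT libraries than among the KO libraries. Within a library, where both values share the depth and are per length, *Nptxr* over *Nptx1* was 5.44, 5.40 and 5.56 for WT of pairs 1, 2 and 3 and 6.01, 4.70 and 5.95 for KO. *Nptx1* over *Nptx2* was 1.97, 1.87 and 1.78 for WT and 2.10, 1.89 and 2.30 for KO. This ratio was higher in KO in 3 of 3 pairs, by least in pair 2. *Nptxr* over *Nptx2* ranged from 9.89 to 10.7 in WT and from 8.87 to 13.7 in KO. Of the summed FPKM of the 3 genes, *Nptxr* made up 77.9% to 78.3% in WT and 75.4% to 80.6% in KO. The difference in spread between genotypes was not tested.

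For each member, as for the median tested gene, pairs took up more of the spread than genotype did. A limma F test over the pairs, with genotype in the model, called *Nptx1* (adjusted p = 0.0104) and *Nptxr* (adjusted p = 0.0303) but not *Nptx2* (adjusted p = 0.0563). These are 2 of 3 members where 30.6% of all tested genes were called, so a difference between pairs was common in these libraries. The pairs took up 98.5% of the sum of squares of *Nptx1* over the 6 libraries, 79.2% of that of *Nptxr* and 64.8% of that of *Nptx2*, against a median of 77.3% over all tested genes. Genotype took up 0.815%, 1.05% and 13.8% for *Nptx1*, *Nptxr* and *Nptx2*, against a median of 3.67%. Pairs have 2 degrees of freedom and genotype 1, which alone favours a larger share for pairs. The call of *Nptxr* was lost without a filter on low values (adjusted p = 0.118) and without the WT library of pair 1 or the KO library of pair 3 (adjusted p = 0.0577 and 0.0777). That of *Nptx1* was lost without the WT library of pair 1 (adjusted p = 0.0529). *Nptx2* was called in 6 of 10 alternatives, at adjusted p-values between 0.00271 and 0.323 over all 10.

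The members did not share 1 order of pairs. *Nptx1* was highest in both libraries of pair 3 and lowest in both of pair 1, with pair means of 39.9, 44.4 and 50.1 FPKM for pairs 1, 2 and 3. *Nptxr* was also highest in both libraries of pair 3 (pair means 229, 224 and 288 FPKM), but pairs 1 and 2 overlapped. *Nptx2* was lowest in both libraries of pair 1 (pair means 19.6, 23.6 and 24.9 FPKM), with pairs 2 and 3 close. Over all tested genes, 17.6% were highest in both libraries of pair 3, 8.57% were lowest in both of pair 1, and 2.56% were both, as *Nptx1* was. The highest pair mean was 1.25, 1.27 and 1.28 times the lowest for *Nptx1*, *Nptx2* and *Nptxr*.

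Many genes that neuronal activity induces had the same order of pairs as *Nptx1*. Of 24 tested activity-regulated genes, 15 (62.5%) were called between pairs, where 30.6% of all tested genes were. Of the 24, 11 (45.8%) were highest in both libraries of pair 3 and lowest in both of pair 1, beside 2.56% of all tested genes. These orders were looked for after the values of the members had been seen. *Arc*, whose product acts in AMPA receptor endocytosis, had pair means of 36.0, 58.5 and 80.5 FPKM for pairs 1, 2 and 3. *Egr1*, a zinc finger transcription factor gene, had means of 87.9, 105 and 150 FPKM (149.57 before rounding). Both were named for this pattern, and their pair means spread over a wider fold than those of any member. Within pair 3, where *Nptx2* was lower in KO, 6 of the 24 genes were higher in KO. Their median log2 difference there was -0.14. Of all 12863 tested genes, 6708 were higher in KO in pair 3, with a median of 0.006. For the 24 genes the median was -0.02 in pair 2 and 0.155 in pair 1, with 17 of 24 higher in KO in pair 1. Over all tested genes the median was 0.013 in pair 2 and -0.007 in pair 1, with 6092 higher in KO in pair 1. What part activity has in the levels of the members was not tested.

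**Figure D3:**
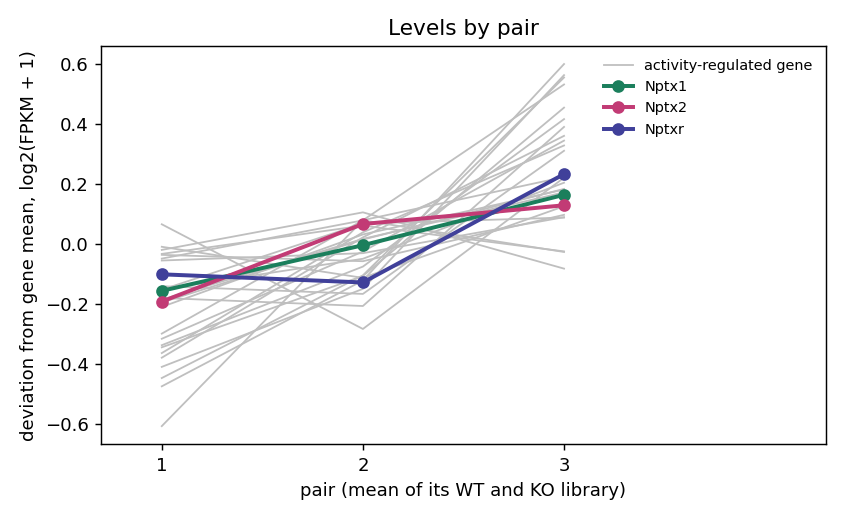
Deviation of each pair (mean of its WT and KO library) from the gene's mean over the 6 libraries, in log2(FPKM + 1), for the 3 members (coloured) and 24 activity-regulated genes (grey lines). By these means all 3 members peak in pair 3 with most of the activity-regulated genes, and *Nptx1* and *Nptx2* are lowest in pair 1.

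Markers of other cells and regions also differed between libraries, and each list was summed per library. All 12 excitatory neuron markers were above 0 in each library, as were all 10 oligodendrocyte markers and all 10 markers of the striatum, another brain region. The summed excitatory neuron markers ranged from 1142 to 1315 FPKM in WT and from 1172 to 1363 in KO. They ran close to *Nptxr* over the 6 libraries (Pearson r = 0.98) and less so to *Nptx1* (r = 0.89) and *Nptx2* (r = 0.44). A sum weights the most abundant markers most. Like *Nptxr*, this sum was highest in both libraries of pair 3. Of the 12 markers themselves, 3 (25.0%) were highest there, beside 17.6% of all tested genes. The summed parvalbumin and other interneuron markers (12 of 12 above 0) ranged from 966 to 1204 FPKM in WT and from 978 to 1111 in KO. Their r was 0.89 with *Nptx1*, 0.74 with *Nptx2* and 0.78 with *Nptxr*. Of these 12 markers, 4 (33.3%) were highest in both libraries of pair 3 and 5 (41.7%) lowest in both of pair 1. Over all tested genes these shares were 17.6% and 8.57%. Libraries of a pair are alike, and marker and member values share the scaling of their library, so these coefficients over 6 libraries are descriptions only. The part of neuronal content in the *Nptx1* and *Nptxr* values was not tested.

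*Nptx2* had the same order of libraries as the summed oligodendrocyte markers, the 1 match among 24 combinations of a marker list and a member. How many of all tested genes have this order was not counted. Of the 10 markers, 8 (80.0%) were called between pairs, where 30.6% of all tested genes were. The match includes the KO and WT libraries of pair 2, whose *Nptx2* values (23.65 and 23.61 FPKM) differ by less than counting error. Their sum was 3018 FPKM in the WT library of pair 3, where *Nptx2* was highest, then 2772 (KO, pair 2), 2422 (WT, pair 2), 2164 (KO, pair 3), 1823 (WT, pair 1) and 1441 (KO, pair 1), where *Nptx2* was lowest (r = 0.93). In pair 3 the KO library was at 71.7% of WT for these markers and at 77.5% for *Nptx2*. In pairs 1 and 2, however, the markers were at 79.0% and 114% of WT, and *Nptx2* at 97.6% and 100.2%. The part of oligodendrocyte content in the *Nptx2* values was not tested.

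*Nptxr* and the summed striatal markers went opposite ways within pairs. In the KO libraries of pairs 1, 2 and 3 the striatal sum was at 48.0%, 104% and 57.8% of WT, while *Nptxr* was at 115%, 87.8% and 107%. The summed striatal markers ranged from 314 to 375 FPKM in WT and from 180 to 362 in KO (179.84 at the lowest). The endothelial and meningeal sum (10 of 10 markers above 0) ranged from 119 to 129 FPKM in WT and from 125 to 156 in KO, and was at 124%, 105% and 118% of WT within the pairs. The astrocyte sum (10 of 10 markers above 0) lay between 805 and 926 FPKM over all 6 libraries, and that of microglia (8 of 8) between 167 and 183. The hippocampal sum (10 of 10 markers above 0, of which 6 reached the filter of 1 FPKM) ranged from 133 to 154 FPKM in WT. In KO it ranged from 139 to 163, and it was at 110%, 104% and 106% of WT within the pairs. Like *Nptxr*, the endothelial and hippocampal sums stood highest against WT in pair 1 and lowest in pair 2. The excitatory neuron sum did so too, at 106%, 96.1% and 104%, so this order was not particular to 1 list. The part of any of these in the *Nptxr* values was not tested.

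**Figure D4:**
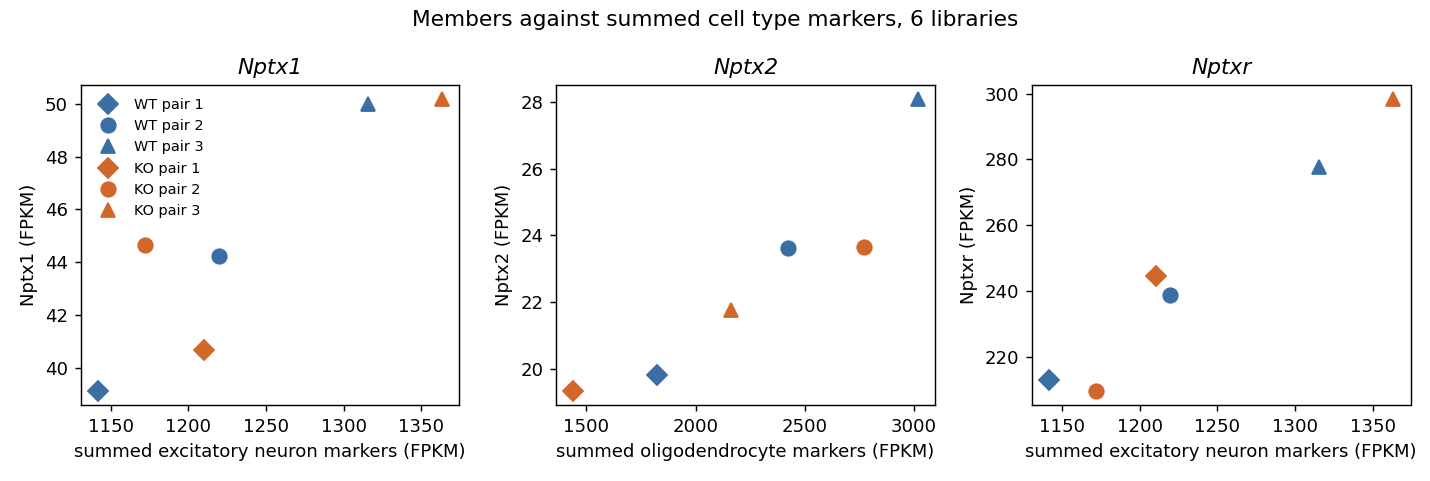
FPKM of *Nptx1* and *Nptxr* against the summed excitatory neuron markers and of *Nptx2* against the summed oligodendrocyte markers, 1 symbol per library (WT blue, KO orange; diamond, circle and triangle for pairs 1, 2 and 3; axes do not start at 0). *Nptx2* is higher with each step of the oligodendrocyte sum from 1441 to 3018 FPKM, and *Nptxr* lies close to a line against the excitatory neuron sum (r = 0.98 over 6 libraries).

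None of the partners of the pentraxins passed the test between genotypes. Of 21 genes for AMPA receptor subunits and accessory proteins, glypicans, receptor phosphatases, the sheddase, BDNF signalling, complement C1q and secreted astrocyte factors, 0 were called higher or lower in KO. Their median log2 difference was 0.008, beside 0.005 over all tested genes, and they ranged from -0.06 to 0.16. *Gpc4*, the glypican gene, averaged 5.89 ± 0.492 FPKM for WT and 6.47 ± 1.29 for KO (log2 difference 0.10, SE 0.14). *Ptprd* averaged 29.2 ± 3.62 and 28.6 ± 3.52 FPKM, and *Adam17*, the sheddase gene, 5.10 ± 0.0762 and 5.11 ± 0.357 (SD, n = 3 each). The smallest unadjusted limma p-values of the list, 0.0998 and 0.27, belonged to *Thbs1* (thrombospondin 1) and *Sparcl1* (hevin), genes of secreted astrocyte factors. *Sparc*, which also encodes such a factor, averaged 170.9 ± 13.6 FPKM for WT and 170.8 ± 8.25 for KO (log2 difference 0.002). *Sparc* was higher in KO in 1 pair only. *Thbs1*, near the filter of 1 FPKM, averaged 1.13 ± 0.0728 FPKM for WT and 1.39 ± 0.119 for KO (log2 difference 0.16, SE 0.09, limma adjusted p = 1). It was higher in KO in each pair. Its KO and WT values did not overlap, as held for 2.95% of all tested genes. *Sparcl1* averaged 561.5 ± 20.2 FPKM for WT and 603.0 ± 29.7 for KO, also higher in KO in each pair, but with overlap between genotypes (log2 difference 0.10, SE 0.09, limma adjusted p = 1).

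The partner genes did not share 1 order of pairs either. *Gria4*, whose product NPTX2 recruits on parvalbumin interneurons, measured 18.9, 19.8 and 17.2 FPKM in the WT libraries of pairs 1, 2 and 3 and 18.4, 19.7 and 17.2 FPKM in the KO libraries. Its lowest pair was thus pair 3, and the difference between pairs was not called (limma adjusted p = 0.0668). *Gria2* was called between pairs (limma adjusted p = 0.00616), with its lowest mean, 69.4 FPKM, also in pair 3. *Ptprd* (adjusted p = 0.0118) and *Ntrk2*, the BDNF receptor gene (adjusted p = 0.0130), had their lowest pair means there too, at 25.1 and 40.6 FPKM. *Bdnf*, whose protein is known to raise *Nptx2* expression, averaged 8.77 ± 1.22 FPKM for WT and 8.78 ± 0.0672 for KO and was not called between pairs (adjusted p = 0.341). *Gria3* had its highest mean in pair 3 (pair means 45.3, 48.9 and 51.4 FPKM for pairs 1, 2 and 3) and was not called (adjusted p = 0.0988). In all, 8 of the 21 genes (38.1%) were called between pairs, where 30.6% of all tested genes were. Of these 8, *Gria2*, *Ptprd*, *Ntrk2* and *Cacng2*, the stargazin gene (adjusted p = 0.0176), were lowest in pair 3 by their means. The complement genes *C1qa*, *C1qb* and *C1qc* (adjusted p = 0.0499, 0.0370 and 0.0274) were highest in pair 3, and *Cnih2*, an AMPA receptor accessory gene (adjusted p = 0.0124), was lowest in pair 2.

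Neither the activity-regulated genes nor other secreted synaptic organizers were called between genotypes. Among the 24 tested activity-regulated genes 0 were called, 11 had a positive and 13 a negative difference, and the median was -0.01. The smallest unadjusted p-values belonged to *Dusp6*, a MAP kinase phosphatase gene (35.2 ± 3.63 FPKM for WT and 31.9 ± 2.62 for KO, log2 difference -0.13), *Scg2* (-0.08), *Homer1* (-0.09) and *Egr3* (-0.13). Among 13 tested genes for cerebellins, C1q-like proteins, LGI proteins and olfactomedins, which like the pentraxins act from outside the cell, 0 were called. The smallest unadjusted p-values there belonged to *C1ql2* (2.31 ± 0.543 and 3.34 ± 1.43 FPKM, log2 difference 0.36), *C1ql1* (0.12), *Cbln1* (0.17) and *Cbln2* (-0.09).

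Other pentraxin genes were at or near 0. None of the 7 reached the filter of 1 FPKM, so they entered no main test. *Apcs* and *Mptx1* were listed at 0 in all libraries, and *Crp*, the gene of C-reactive protein, and *Mptx2* held 1 read each in 1 library. *Ptx3*, a long pentraxin gene of innate immunity, averaged 0.291 ± 0.136 FPKM for WT and 0.218 ± 0.104 for KO, from 6 to 32 reads per library. *Ptx4* averaged 0.385 ± 0.00874 and 0.478 ± 0.140 FPKM. *Svep1*, which encodes a large matrix protein with a pentraxin domain, measured 0.079, 0.062 and 0.073 FPKM in the WT libraries of pairs 1, 2 and 3 (34, 19 and 28 reads) and 0.128, 0.142 and 0.098 FPKM in the KO libraries (38, 36 and 35 reads). The KO values of *Svep1* lay above the WT values, and its limma adjusted p was 1 in the fit without a filter (log2 difference 0.07, SE 0.02).

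The genes most like each member over the 6 libraries were taken from 8810 other genes averaging at least 5 FPKM, by Pearson r of log2(FPKM + 1). For *Nptx1* they were *Faim2*, *Dusp1*, *Hdac11*, *Arhgef4* and *Wipf2* (r from 0.988 to 0.994), of which *Dusp1* is on the activity-regulated list. For *Nptx2* they included *Plcl2*, *Pdp1*, *Ccdc97* and *Jdp2* (r from 0.979 to 0.991). For *Nptxr* they were *Npcd* (r = 0.999), which overlaps it, then *Ccsap*, *Cbarp*, *Tmem151b* and *Ier2* (r from 0.982 to 0.994), of which *Ier2* is on the activity-regulated list. Genes at r of 0.95 or more numbered 92 for *Nptx1*, 17 for *Nptx2* and 34 for *Nptxr*. Among the members themselves r was 0.73 for *Nptx1* and *Nptx2*, 0.78 for *Nptx1* and *Nptxr* and 0.32 for *Nptx2* and *Nptxr*. All of these describe 6 libraries in 3 pairs.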

How the data were processed

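The authors deposited FPKM values for 24453 gene rows in 6 library columns. Per the file headers, HOMER counted reads over exons on mm10 with transcripts condensed per gene. The command names 12 libraries, and those beyond the 6 are not analysed here. The submitters' processing notes name FastQC, STAR 2.4.0k and HOMER 4.8.3. Strand handling is stated in no source used here. FPKM is scaled by mapped reads, so levels are relative.

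Library totals were recovered from the FPKM steps (100.0% of checked values whole within 0.1 read, in rows under 4000 bp and 200 reads): 38.2, 27.5 and 34.0 megareads for WT of pairs 1, 2 and 3, and 26.4, 22.7 and 31.9 for KO. The reads given for a gene rest on these totals, and their error covers counting only.

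Tests used limma 3.58.1 in R 4.3.3, 2-sided and with a trend of variance on level, over the 12863 genes averaging at least 1 FPKM, whose values were transformed as log2(FPKM + 1). The log2 differences understate changes of low genes. The fits were tested on simulated data. Summaries and plots used Python 3.11.15, scipy 1.17.1, pandas 2.3.3, numpy 2.4.6 and matplotlib 3.10.9.

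Libraries of a pair deviated together from the genotype means (r = 0.43, 0.71 and 0.67 for pairs 1, 2 and 3, and -0.61 to -0.06 for other combinations), so the title numbers were taken to pair the libraries. No library repeated another of its genotype (chi-square per degree of freedom 13.8 or more).

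The members and lists were chosen with earlier results of these data known. Named were the members, *Chrdl1*, the partners listed in the design, every pentraxin gene, up to 4 genes per other pathway list by smallest unadjusted p, and the 5 genes most like each member, of which 1 is not reported here. *Arc*, *Egr1*, *Npcd*, *Cbx6*, *Thbs1*, *Sparcl1*, *Sparc*, *Cacng2*, *Cnih2* and the C1q genes were added after their values were seen. All 149 entries of the 12 lists matched a symbol.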

Additional observations from a re-analysis of the deposited data

How the results depend on the processing

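No alternative called a member between genotypes. *Nptx2* was lower in KO in all 17 alternatives, with log2 differences from -0.248 to -0.0081. The difference of *Nptx1* turned negative in 2 of 17 (-0.062 to 0.11 with single libraries left out). That of *Nptxr* turned negative in 3 of 17 (-0.094 to 0.159 with single libraries left out, and -0.043 without both libraries of pair 1). The replicate block left the log2 differences at 0.02, -0.13 and 0.04 for *Nptx1*, *Nptx2* and *Nptxr* and changed no call. Genes called between genotypes numbered 1 as reported, 2 at a pseudocount of 0.1 and 6 without a filter. At an average of 5 FPKM or more, 0 were called (34 at an unadjusted limma p under 0.05). That filter leaves out *Chrdl1*, which averaged 1.80 FPKM over the 6 libraries. Voom on recovered reads called 1, and 2 with the replicate block added. With single libraries left out, 1 to 4 were called (2 without the WT and 4 without the KO library of pair 2). Without both libraries of pair 1 or of pair 2, 0 were called (29 and 208 unadjusted).

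Between pairs, 3936 genes were called as reported, 1347 without a filter and 2038 to 3923 with single libraries left out (2038 without the WT and 2076 without the KO library of pair 1). That last alternative was added after the data were seen, and it assumes that the lone library of a pair varies like the others. It gave adjusted p-values from 0.00382 to 0.0529 for *Nptx1*, from 0.00271 to 0.323 for *Nptx2* and from 0.000459 to 0.0777 for *Nptxr*. *Nptx2* was called at an average of 5 FPKM or more (adjusted p = 0.0367) and with upper quartile scaling (adjusted p = 0.0297), and *Nptxr* was not called without a filter (adjusted p = 0.118). The cause of these changes was not tested. With 3 libraries per genotype and 2 per pair, their number limits precision.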
